A study of Arabidopsis thaliana with 4 samples.

Results

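The PHYTOCHROME INTERACTING FACTORS (PIFs) are basic helix-loop-helix (bHLH) transcription factors through which plants grow according to the light they receive. The 9 genes described here are PIF1, PIF3, PIF4, PIF5 and PIF7, the bHLH genes HFR1, PIL1 and PAR1, and the homeodomain-leucine zipper gene ATHB2. They were chosen by locus identifier from the 34133 loci with values, for their known place in PIF and shade signalling, and not by their values here. First leaves were compared between the inbred Arabidopsis thaliana accession Ak-1 and the hybrid Col-0xAk-1, in a study of heterosis for biomass, in which hybrids outgrow their parents. Each group had 2 libraries from plants aged 14 days on Murashige and Skoog medium with 1% sucrose.

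The labels of the inbred do not agree on its name. Titles and strain read Ak-1, the genotype entry reads Aa-0 (Col-0xAa-0 for the hybrid) and the design text reads Ak-0, so the titles are followed here. The hybrid shares the Ak-1 genome with the inbred, and its other parent Col-0, the reference accession of the species, was not analysed here, which leaves the hybrid without a mid-parent value. Which plant was the mother, the light regime, the hour of harvest and whether replicates came from separate plants are not given in the sources used here. The p-values therefore rest on differences among these libraries alone, and those may be technical. The build named in the submitters' processing notes, TAIR10, is the Col-0 genome, and sequence divergence of Ak-1 at the 9 loci was not analysed here.

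In red-rich sunlight, phytochrome photoreceptors in their active form bind PIF proteins in the nucleus and send them for degradation. In the shade of other plants, where far-red light prevails, PIF proteins accumulate and switch on genes for auxin synthesis and elongation. They also switch on their own inhibitors. HFR1 and PAR1 pair with PIF proteins and keep them off DNA, and ATHB2 and PIL1 are classical genes of fast shade induction. Much of this control acts on PIF protein, which transcript levels do not show.

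The values are FPKM, fragment counts corrected for transcript length and for the number of fragments mapped in that library, so levels can be compared between genes. FPKM summed to 714890 to 741307 per library, and total depth is unknown. Relative depths, read from the steps between low values, set Ak-1 replicate 1 at 1 and gave 1.12 for the other Ak-1 library, 1.35 for replicate 1 of the hybrid and 1.17 for its replicate 2. The 5 leaf markers, such as the light-harvesting gene LHCB3, had 2218 FPKM or more in every library. The 5 root markers summed to at most 0.16 FPKM and the 6 markers of shoot apex and flower to at most 0.33 FPKM. The hybrid libraries stand further apart than the Ak-1 libraries, with 74 against 0 loci differing by over 4-fold on the log2(FPKM + 1) scale and Pearson's r across tested loci of 0.968 against 0.990. In addition, 19 loci were under 0.1 FPKM in both Ak-1 libraries and in hybrid replicate 1 but at 1 FPKM or more in hybrid replicate 2, and 1 locus showed the reverse between the hybrid libraries. Results on the hybrid are therefore given by library, and with each library left out where that matters.

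Leaves of both groups expressed the PIF genes in a steep order led by PIF5. PIF5 and PIF4, growth promoters with overlapping roles in shade and in the daily rhythm of elongation, held the top places. In Ak-1 the mean FPKM was 212.5 for PIF5, 73.2 for PIF4, 37.0 for PIF1, 32.4 for PIF7, 15.3 for ATHB2, 13.9 for PIF3, 9.19 for HFR1, 0.58 for PAR1 and 0.22 for PIL1. In the hybrid the order of means was PIF5, PIF4, PIF7, PIF1, PIF3, ATHB2, HFR1, PAR1 and PIL1. Neighbours in each order did not overlap between libraries, except ATHB2 and PIF3 in Ak-1. PIF5 had a higher mean over the 4 libraries than 97.1% of the tested loci and PIF4 than 90.6%, while HFR1 exceeded 39.4%.

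**Figure D1:**
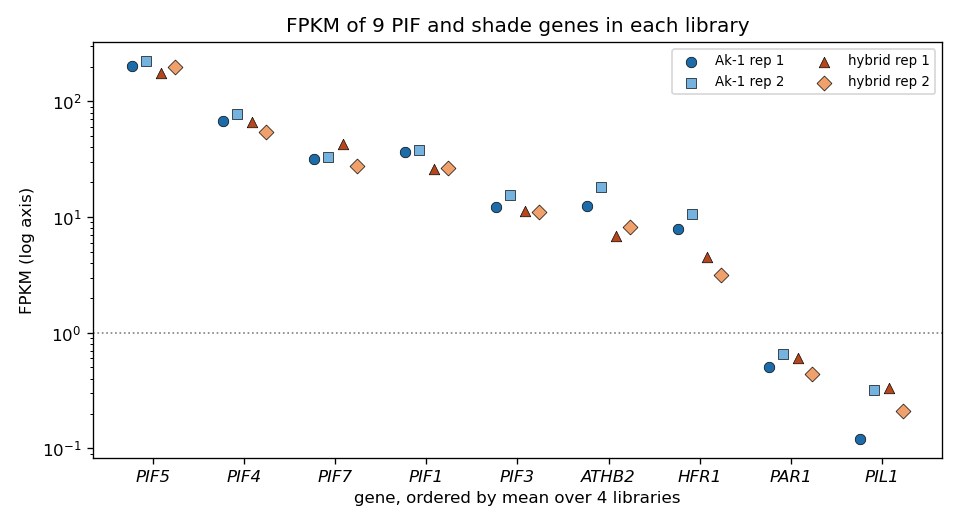
FPKM (log axis) of the 9 genes in each of the 4 libraries, 1 point per library, with the filter of 1 FPKM as a dotted line. PIF5 lies between 176 and 222 FPKM in every library, PAR1 and PIL1 lie below the line, and both hybrid points lie below both Ak-1 points for 6 of the 7 genes above the line, all but PIF7.

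Between the groups, the genes with the widest separation were HFR1 and ATHB2, whose hybrid means were 0.417 and 0.490 times those of Ak-1, followed by PIF1 at 0.709 times. HFR1 averaged 9.19 ± 1.91 FPKM in Ak-1 and 3.84 ± 0.997 in hybrid leaves (mean ± SD, n = 2 per group). The corresponding means were 15.3 ± 3.97 and 7.49 ± 0.969 FPKM for ATHB2 and 37.0 ± 0.948 and 26.2 ± 0.523 FPKM for PIF1. None of the 3 differences passed the test across all genes. Of the 9 genes, 7 averaged 1 FPKM or more across libraries and were tested with limma on log2(FPKM + 1), hybrid minus Ak-1, and PAR1 and PIL1 were not. Of the 7, 0 passed an adjusted p (Benjamini-Hochberg) of 0.05, where 4.13% of all 15905 tested loci were called (1.62% higher and 2.51% lower in the hybrid). At an unadjusted p under 0.05 there were 3, all lower in the hybrid (HFR1, ATHB2 and PIF1), where 12.6% of all tested loci were lower at that limit. Both hybrid libraries lay below both Ak-1 libraries for 6 of the 7, against 32.6% of all tested loci, and above them for 0 of the 7, against 20.5%. The median log2 difference of the 7 was −0.28, and over all tested loci it was −0.06. With 2 libraries against 2, an exact permutation test of a single gene cannot go below p = 0.333, so none is given. In whole leaves, fewer cells of a type and less RNA per cell cannot be told apart.

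**Figure D2:**
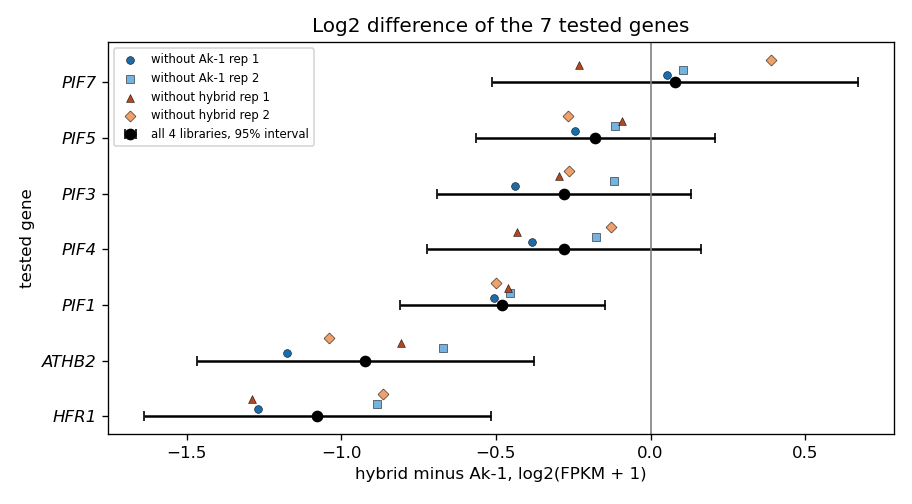
Log2 difference, hybrid minus Ak-1, of the 7 tested genes on the log2(FPKM + 1) scale. Black points are the fit on all 4 libraries with limma's 95% interval, and coloured points are the fits that leave out 1 library. The intervals of HFR1, ATHB2 and PIF1 lie below 0, those of the other 4 genes include 0, and only PIF7 has a point on the other side of 0 from its main value.

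PIF1 (AT2G20180) represses seed germination and chlorophyll synthesis in the dark. Its level was 36.3 and 37.6 FPKM in Ak-1 against 25.9 and 26.6 in the hybrid. The groups did not overlap, and the replicates within each group were close, the higher being 1.04 times the lower in Ak-1 and 1.03 times in the hybrid. The log2 difference was −0.48 (SE 0.13, 95% interval −0.81 to −0.15, limma adjusted p = 0.133). With each library left out in turn it stayed between −0.51 and −0.45. The PIF1 locus overlaps AT2G20170 over 334 bases of the annotation, and that locus was listed at 0 in every library.

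PIF3 (AT1G09530), the founding member of the family and a regulator of seedling greening, had 12.2 and 15.5 FPKM in Ak-1 against 11.3 and 11.0 in the hybrid. The hybrid pair lay just under the lower Ak-1 library. Its log2 difference was −0.28 (SE 0.16, interval −0.69 to 0.13, limma adjusted p = 0.412). It was −0.12 without Ak-1 replicate 2 and −0.44 without Ak-1 replicate 1.

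PIF4 (AT2G43010), which promotes elongation in shade and warmth, had 67.9 and 78.5 FPKM in Ak-1 against 66.7 and 53.9 in the hybrid. Hybrid replicate 1 was close to the lower Ak-1 library, and hybrid replicate 2 was the lowest of the 4. The log2 difference was −0.28 (SE 0.17, interval −0.72 to 0.16, limma adjusted p = 0.444), at −0.43 without hybrid replicate 1, −0.13 without hybrid replicate 2 and −0.18 without Ak-1 replicate 2. PIF5 (AT3G59060), its closest partner in function, had 203 and 222 FPKM in Ak-1 against 176 and 199 in the hybrid, with hybrid replicate 2 near the lower Ak-1 library. The log2 difference of PIF5 was −0.18 (SE 0.15, interval −0.57 to 0.21, limma adjusted p = 0.579), at −0.09 without hybrid replicate 1 and −0.11 without Ak-1 replicate 2.

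PIF7 (AT5G61270), the main driver of auxin synthesis in shade, was the tested gene whose groups overlapped. It had 31.8 and 33.1 FPKM in Ak-1, 42.8 in hybrid replicate 1 and 27.5 in hybrid replicate 2. Thus the hybrid libraries lay on opposite sides of both Ak-1 libraries, and the higher was 1.56 times the lower. The log2 difference was 0.08 (SE 0.23, interval −0.51 to 0.67, limma adjusted p = 0.888), at −0.23 without hybrid replicate 1 and 0.39 without hybrid replicate 2. The PIF7 locus overlaps AT5G61260 over 318 bases, and that locus had 0.6 to 0.95 FPKM.

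Summed over the 5 PIF genes, the libraries had 351 and 387 FPKM in Ak-1 against 323 and 318 in the hybrid. This PIF sum leaves out the relative PIF8, which went the other way, with 19.9 and 16.6 FPKM in Ak-1 against 31.8 and 49.5 in the hybrid. PIF5 made up 57.8% and 57.4% of that sum in Ak-1 against 54.6% and 62.6% in the hybrid, so the hybrid libraries enclose the Ak-1 values. The share of PIF1 was 10.3% and 9.73% in Ak-1 against 8.0% and 8.36% in the hybrid.

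HFR1 (AT1G02340), an inhibitor that pairs with PIF proteins, had 7.84 and 10.5 FPKM in Ak-1 against 4.54 and 3.13 in the hybrid. The groups did not overlap, although replicates differed by 1.34 times in Ak-1 and 1.45 times in the hybrid. The log2 difference was −1.08 (SE 0.22, interval −1.64 to −0.52), with an unadjusted p of 0.00409 and an adjusted p of 0.0722 from limma. Relative to the PIF sum of the same library, a ratio that does not depend on library scaling, HFR1 stood at 2.23% and 2.72% in Ak-1 and at 1.41% and 0.984% in the hybrid. The log2 difference was −0.87 without hybrid replicate 2 and −1.29 without hybrid replicate 1.

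PAR1 (AT2G42870), a small inhibitor without DNA binding of its own, had 0.51 and 0.65 FPKM in Ak-1 against 0.60 and 0.44 in the hybrid. PIL1 (AT2G46970), a bHLH gene used as a marker of fast shade response, had 0.12 and 0.32 FPKM in Ak-1 against 0.33 and 0.21 in the hybrid. Groups overlapped for both genes, and at these levels no difference was detectable. PAR2, the near relative of PAR1, had higher levels than PAR1 in every library, at 6.02 and 4.43 FPKM in Ak-1 against 9.86 and 7.08 in the hybrid (limma adjusted p = 0.218).

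ATHB2 (AT4G16780), a shade-induced gene that promotes elongation, had 12.5 and 18.1 FPKM in Ak-1 against 6.80 and 8.17 in the hybrid. The groups did not overlap, and the Ak-1 libraries differed by 1.45 times. The log2 difference was −0.92 (SE 0.21, interval −1.47 to −0.38), with an unadjusted p of 0.00704 and an adjusted p of 0.0964 from limma. Without Ak-1 replicate 2, the higher Ak-1 library, it was −0.67.

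ATHB2 has relatives in the same class of homeodomain genes, and HAT1, HAT2 and HAT3 were set beside it after their values were seen. HAT2 had 30.7 and 34.4 FPKM in Ak-1 against 37.6 and 49.7 in the hybrid, above both Ak-1 libraries (log2 difference 0.40, limma adjusted p = 0.312). HAT3 had 8.86 and 9.98 FPKM in Ak-1 against 6.95 and 5.28 in the hybrid (−0.56, limma adjusted p = 0.169). HAT1 had 17.8 and 21.6 FPKM in Ak-1 against 15.9 and 17.7 in the hybrid, both just under the lower Ak-1 library (−0.22, limma adjusted p = 0.518). As a within-library ratio, ATHB2 stood at 0.406 and 0.527 of HAT2 in Ak-1 and at 0.181 and 0.164 of HAT2 in the hybrid. Relative to HAT1, the Ak-1 ratios were 0.699 and 0.836, while hybrid ratios were lower, at 0.428 and 0.461. Relative to HAT3 the groups overlapped, with Ak-1 ratios of 1.41 and 1.81 against hybrid ratios of 0.978 and 1.55. The lower ATHB2 ratio in the hybrid was thus separate between groups for HAT2 and HAT1 but not for HAT3. None of these 4 genes passed the test across all genes, and the difference between their changes was not tested.

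A further 82 genes of light signalling and PIF function were listed, of which 66 were tested. These lists were drawn up with earlier results of these data known. Of the 66, 1 was called higher in the hybrid, 0 were called lower and 65 were not called. Of all tested loci, 1.62% were called higher and 2.51% lower. At an unadjusted p under 0.05, 11 were higher and 6 lower, where 7.61% and 12.6% of all tested loci were. The same shares stand beside the counts of each list below. Their median log2 difference was 0.09.

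The gene called was PHYD, for a phytochrome closely related to phytochrome B, in the list of photoreceptors. It had 0.21 and 0.19 FPKM in Ak-1 against 1.67 and 2.59 in the hybrid (log2 difference 1.37, SE 0.22, limma adjusted p = 0.0401). PHYD reached the filter of 1 FPKM only through the hybrid libraries, so a gene tested in this way had to differ, and its call is given as a description. The scale understates changes of genes this low. The call was lost with no filter on low values (limma adjusted p = 0.227) and with the replicate number as a block (0.0703). It was also lost without either Ak-1 library, as were nearly all calls over the tested loci. The log2 difference of PHYD was then 1.379 without Ak-1 replicate 1 and 1.355 without Ak-1 replicate 2. A filter of 5 FPKM leaves PHYD untested. Whether the Ak-1 allele of PHYD differs from the reference sequence was not tested. The other 7 photoreceptor genes were not called, PHYB for one having 20.0 and 18.5 FPKM in Ak-1 against 19.9 and 17.2 in the hybrid.

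Among 11 tested genes of the COP1 and SPA ubiquitin ligase, its target HY5 and phytochrome A transport, 0 were called by limma (1 higher and 1 lower at an unadjusted p under 0.05), 7 had a positive and 4 a negative log2 difference, and the median was 0.04. FHY1, which carries phytochrome A into the nucleus, had the smallest adjusted p, with 4.42 and 3.99 FPKM in Ak-1 against 2.74 and 2.53 in the hybrid (limma adjusted p = 0.145).

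Among 11 tested bHLH relatives and HLH inhibitors, 0 were called by limma (4 higher and 0 lower at an unadjusted p under 0.05), 9 had a positive and 2 a negative log2 difference, and the median was 0.35. PIF8, also named UNE10 and a PIF relative, had 19.9 and 16.6 FPKM in Ak-1 against 31.8 and 49.5 in the hybrid (log2 difference 1.08, limma adjusted p = 0.0904). With 1 library left out, the log2 difference of PIF8 was 1.39 without hybrid replicate 1 and 0.77 without hybrid replicate 2. It was 1.205 and 0.96 without Ak-1 replicates 1 and 2. Both hybrid libraries lay above both Ak-1 libraries, as they did for 5 of these 11 genes, where 20.5% of all tested loci did. Per library, PIF8 stood at 0.548 and 0.442 of the PIF1 level in Ak-1 and at 1.23 and 1.86 of it in the hybrid. Thus PIF8 was below PIF1 in both Ak-1 libraries and above it in both hybrid libraries. PIF8 was named for the smallest adjusted p of its list and PIF1 was lower in the hybrid, so this ratio is only a description.

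Among 19 tested regulators and partners of PIF proteins, which include the DELLA growth repressors and the evening complex, 0 were called by limma (1 higher and 2 lower at an unadjusted p under 0.05) and the median was −0.04. RGL2, a DELLA gene, had 1.07 and 0.92 FPKM in Ak-1 against 2.24 and 3.08 in the hybrid (limma adjusted p = 0.0883). Its Ak-1 mean is under 1 FPKM, so it too passed the filter through the hybrid. The log2 difference of RGL2 was 0.87, at 1.03 without hybrid replicate 1 and 0.70 without hybrid replicate 2. It was 0.92 and 0.81 without Ak-1 replicates 1 and 2. The DELLA genes did not move together. RGL3 had 4.2 and 5.53 FPKM in Ak-1 against 1.08 and 2.49 in the hybrid (log2 difference −1.11, limma adjusted p = 0.1235). For GAI, RGA and RGL1 the log2 differences were 0.16, 0.04 and −0.04.

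Of 25 other shade and PIF target genes, 17 were tested and 0 called by limma (3 higher and 2 lower at an unadjusted p under 0.05), with a median of 0.15. PKS2, for a substrate of phytochrome kinase activity that acts in phototropism, had 24.9 and 24.2 FPKM in Ak-1 against 38.7 and 40.6 in the hybrid (log2 difference 0.67, limma adjusted p = 0.0661). That value passed the threshold after median-of-ratios scaling (0.0490) and quantile normalization (0.0460). ST2A, a sulfotransferase gene of jasmonate breakdown singled out after its values were seen, had 2.02 and 3.67 FPKM in Ak-1 against 0.83 and 0.40 in the hybrid (log2 difference −1.23, limma adjusted p = 0.0938), and it passed the filter through Ak-1. The other 8 genes stayed under the filter, at low values, and were not tested. Groups overlapped for CKX5, FT and the auxin synthesis gene YUC8, a target of PIF proteins in shade with 0.25 to 0.59 FPKM. Both hybrid libraries lay below both Ak-1 libraries for XTR7, YUC5, XTH33, YUC9 and ATHB4. XTR7 had 0.98 and 1.59 FPKM in Ak-1 against 0.47 and 0.49 in the hybrid, and YUC5 had 0.43 and 0.81 against 0.07 and 0.21. Of all tested loci, 32.6% were lower in this way, but the share among loci under the filter was not counted. Among the 17 tested genes of the list, 5 were lower in this way and 5 were higher.

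**Figure D3:**
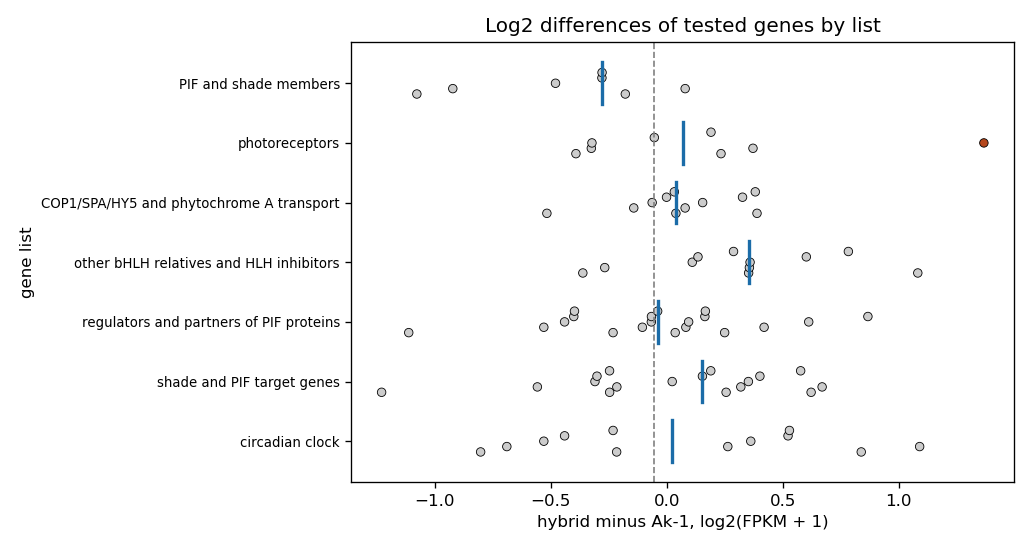
Log2 difference, hybrid minus Ak-1, on the log2(FPKM + 1) scale for each tested gene of 7 lists, 1 point per gene. Blue bars are list medians, the dashed line is the median of all tested loci (−0.06), and the filled red point is PHYD, which passed the test. The 7 PIF and shade genes have a median of −0.28 and the bHLH relatives one of 0.35.

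PIF4 and PIF5 transcripts follow the circadian clock, and the hour of harvest is not given, so 15 clock genes were set beside them. Of the 12 tested, 0 were called by limma (2 higher and 1 lower at an unadjusted p under 0.05), with a median of 0.02. CDF1, a repressor of flowering, had the smallest adjusted p, with 27.2 and 32.1 FPKM in Ak-1 against 44.8 and 41.0 in the hybrid (limma adjusted p = 0.151). The hybrid libraries stood further apart than the Ak-1 libraries for 9 of the 12, and for 64.6% of all tested loci. The 3 clock genes described next were picked after their values were known. LHY, expressed around dawn, had 57.2 and 53.1 FPKM in Ak-1, 72.1 in hybrid replicate 1 and 194 in hybrid replicate 2. PRR7, expressed later in the day, had 49.2 and 49.9 FPKM in Ak-1, 44.5 in hybrid replicate 1 and 20.6 in hybrid replicate 2. GI, another gene of the later day, had 6.08 and 5.98 FPKM in Ak-1, 4.84 in hybrid replicate 1 and 1.78 in hybrid replicate 2. Hybrid replicate 2 is also the library with the lowest PIF3, PIF4, PIF7, HFR1 and PAR1. The lowest PIF1, PIF5 and ATHB2 were in hybrid replicate 1, and the lowest PIL1 was in Ak-1 replicate 1. The part of these clock values in the values of the PIF genes was not tested.

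**Figure D4:**
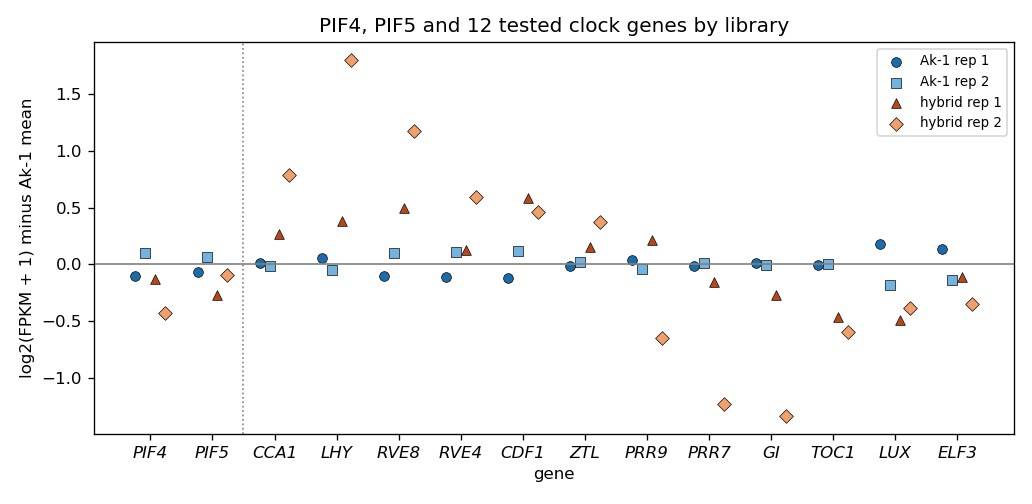
Level of PIF4, PIF5 and the 12 tested clock genes in each library as log2(FPKM + 1) minus the mean of the Ak-1 libraries, 1 point per library. For LHY, PRR7 and GI the Ak-1 libraries lie close together. Hybrid replicate 2 lies 1.8 above the Ak-1 mean for LHY and 1.23 and 1.34 below it for PRR7 and GI. For LUX, ELF3 and CDF1 the Ak-1 libraries lie further apart than the hybrid libraries.

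The loci most like HFR1, ATHB2 and PIF1 were sought among all tested nuclear loci, by the root-mean-square distance of log2(FPKM + 1) profiles over the 4 libraries, each centred on its own mean. HFR1 was nearest to OZF2 (distance 0.031), with 30.4 and 38.0 FPKM in Ak-1 against 17.8 and 13.5 in the hybrid, and next to NADK1 (0.049) and AT1G03420.1 (0.062). ATHB2 was nearest to ORA59 (0.014), with 1.52 and 2.52 FPKM in Ak-1 against 0.44 and 0.73 in the hybrid, followed by AT5G42050 (0.017) and AT1G32928 (0.018). The profile of PIF1 was nearest to PGSIP6 (0.0049), with 10.8 and 11.2 FPKM in Ak-1 against 7.46 and 7.66 in the hybrid, then to AT3G46540 (0.0068) and RABA2D (0.015).

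Other features of the libraries moved with the groups. The 18S ribosomal RNA locus AT3G41768 had 10547 and 7145 FPKM in Ak-1 against 1670 and 4446 in the hybrid. Mitochondrial loci summed to 1177 and 1084 FPKM in Ak-1 against 581 and 774 in the hybrid. The 5 leaf markers summed to 23160 and 26460 FPKM in Ak-1 against 35840 and 27700 in the hybrid, but they did not move together. Both hybrid libraries lay above both Ak-1 libraries for RCA and LHCB2.1, while groups overlapped for LHCB3, LHCA1 and PSBO1. LHCB3 had 4134 and 4721 FPKM in Ak-1 against 5675 and 3162 in the hybrid. The 4 markers of epidermis and vasculature, none of them at 0 in any library, summed to 170 and 194 FPKM in Ak-1 against 221 and 222 in the hybrid. Of these, the epidermal gene PDF1 had 5.58 and 6.02 FPKM in Ak-1 against 2.20 and 3.79 in the hybrid, and the phloem transporter gene SUC2 had 144 and 168 against 197 and 198. The part of these features in the levels of HFR1, ATHB2 and PIF1 was not tested. By position, 4 of the 9 genes (PIF1, PIF4, PIL1 and PAR1) lie on chromosome 2, with HFR1 and PIF3 on chromosome 1 and a single gene on each of the other three. The genes on chromosome 2 included both PIF1, whose groups did not overlap, and PAR1 and PIL1, whose groups did.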

How the data were processed

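Per the labels' protocols, RNA of first leaves was purified on RNeasy columns and made into TruSeq V2 libraries, a kit that does not mark strand. The authors deposited 1 FPKM value per locus and library, rounded to 2 decimals. Build TAIR10, edgeR 3.12.0, Cufflinks 2.0.2 and TopHat2 2.0.8b appear in the submitters' processing notes without a stated role.

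FPKM were used as deposited. Loci averaging 1 FPKM or more across all 4 libraries were tested with limma 3.58.1 in R 4.3.3 (lmFit, eBayes with trend) on log2(FPKM + 1), which understates the change of low genes, two-sided, with Benjamini-Hochberg adjustment over all 15905 tested loci. The fit had 2 residual and 3.18 prior degrees of freedom. The procedure was tested on simulated data with the same spread in both groups. That test does not cover the wider spread of the hybrid libraries. Names and overlaps came from RefSeq (TAIR10.1, 31416 loci matched), so no coordinates or sequences are printed; 4 listed genes whose symbols did not match were dropped. The 9 genes were set by locus identifier, and the other genes and lists were chosen with earlier results of these data known. Named from each list were up to 5 called genes (3 for the clock) with the largest change, or else the gene with the smallest adjusted p. Alternatives covered scaling, pseudocount, filter, trend, replicate block and each library left out.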

Additional observations from a re-analysis of the deposited data

How the results depend on the processing

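The number of genes called among all tested loci was 657 (257 higher, 400 lower in the hybrid). It was 298 when loci had to average 5 FPKM or more, 172 with no filter on low values (107 higher and 65 lower), and 4 to 1311 with 1 library left out, the lowest count without Ak-1 replicate 2, then 5 without Ak-1 replicate 1, and the highest without hybrid replicate 1. Under the other alternatives run it stayed between 565 and 701. None of the 7 tested PIF and shade genes was called under 12 of the 13 alternatives run. The replicate numbers are not known to pair libraries. The correlation of replicate differences between the groups was −0.138, so a fit with crossed pairs was added after seeing the data. With this crossed replicate block, 1 of the 7 was called, HFR1 (limma adjusted p = 0.0312). With the replicate numbers as a block 565 genes were called, 0 of them among the 7.

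Of the 66 other light signalling genes, 1 was called. The count was 2 after median-of-ratios scaling and after quantile normalization, 0 with the filter at 5 FPKM or with none, 0 with the replicate block, 3 with the crossed replicate block, and 0 to 4 with 1 library left out (0 without either Ak-1 library, 4 without hybrid replicate 1). Of 91 alternative values of the 7 genes, 89 kept their direction and their side of the threshold. The sign of PIF7 turned without hybrid replicate 1 (log2 difference −0.23), against 0.39 without hybrid replicate 2. The adjusted p ranged from 0.0312 to 0.451 for HFR1, from 0.0722 to 0.495 for ATHB2 and from 0.117 to 0.63 for PIF1. The cause of these shifts was not tested; a library left out leaves 1 residual degree of freedom, with the lone library assumed to vary like the other group. Depth limits PAR1 and PIL1 most, which lie under 1 FPKM.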
